A study of Mus musculus with 87 samples.

Results

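The Hippo pathway and TEAD genes described here are 10 mouse genes chosen by symbol, *Tead1*, *Tead2*, *Tead3*, *Tead4*, *Yap1*, *Wwtr1*, *Lats1*, *Lats2*, *Nf2* and *Amotl2*, out of 55487 genes in the count tables. All 10 had a unique entry and passed the filter on low counts in each of the 5 RNA-seq experiments. RNA-seq comprised 41 libraries from mice and mouse embryonic stem cells (mESCs), and CUT&RUN, which maps a protein or histone mark on chromatin by cutting the DNA around a bound antibody, comprised 40 peak lists from mESCs. The study asked how the homeobox factors *Obox4* and *Dux* share zygotic genome activation, the first transcription of the embryo's own genome.

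The libraries fall into the following groups. B6D2F1 zygotes were injected with antisense oligonucleotides (ASOs) and taken as 2C-embryos 20 h later, 30 embryos per library and 2 libraries per group, after double knockdown of *Dux* and *Obox4* with 40 µM ASO plus 100 ng/µL *Obox4* mRNA (rescue), double knockdown with 40 µM ASO, *Dux* knockdown with 20 µM, *Obox4* knockdown with 20 µM, or 40 µM scramble ASO. Single knockdowns thus had a lower ASO dose than the scramble group. Morulae came from double knockdown or scramble injections (2 libraries each). Single blastomeres of 2C-embryos were *Obox4* KO, *Obox4* Het or *Obox4* WT (2 libraries each), and all 6 were also *Dux* KO. In the *Obox4* KO mice the gene cluster was removed and the separate copy *Obox4-ps33* was kept. Double KO, *Dux* KO, *Obox4* KO and WT mESCs (EB3, background 129/Ola) were all cultured with pladienolide B (PlaB), a drug that blocks splicing, 3 libraries each, and the KO lines were grown from picked clones. mESCs with a doxycycline-inducible 3×FLAG-*Obox4* transgene, also a picked clone, were collected at 0, 12 and 48 h of induction (3 libraries each). The CUT&RUN lists cover 3×FLAG-OBOX4 in the inducible line (3 lists), 3×FLAG-DUX (1 list), and H3K4me3, H3K27ac and H3K27me3 in *Obox4* KO and WT mESCs with and without PlaB (3 lists each).

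In the Hippo pathway, a kinase cascade holds the co-activators YAP1 and TAZ (encoded by *Wwtr1*) in the cytoplasm, and when the cascade is off they enter the nucleus and act through the TEAD factors, which bind DNA. *Lats1* and *Lats2* encode the kinases that phosphorylate YAP1 and TAZ, *Nf2* (merlin) activates the cascade at the cell cortex, and *Amotl2* encodes an angiomotin that binds YAP1 and keeps it out of the nucleus. In the mouse morula, TEAD4 with YAP1 is needed in outer cells for the trophectoderm genes *Cdx2* and *Gata3*, while Hippo signalling in inner cells keeps YAP1 cytoplasmic and allows *Sox2*. Maternal *Yap1* RNA is stored in the oocyte. In the count tables (GRCm38.p6) *Tead2* is ENSMUSG00000030796 (chr7:45215753-45233644, plus strand), *Wwtr1* ENSMUSG00000027803 (chr3:57455649-57575910, minus), *Lats1* ENSMUSG00000040021 (chr10:7681214-7716460, plus), *Lats2* ENSMUSG00000021959 (chr14:57689662-57758388, minus) and *Nf2* ENSMUSG00000009073 (chr11:4765845-4849536, minus), and the other 5 are placed where they are described.

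Counts assigned to genes ranged over 26148176 to 69461986 per library in 2C-embryos, 53573946 to 104864947 in morulae, 26447809 to 40004674 in blastomeres, 14283083 to 48837123 in PlaB-treated mESCs and 22470332 to 31504967 in the induction series. Summed over all 39 copies, *Obox4* had 44.1 and 41.7 CPM (counts scaled to a common library size) in double knockdown and 68.0 and 83.5 CPM in *Obox4* knockdown 2C-embryos, against 68.4 and 76.0 CPM in scramble. The sum was lower in the double knockdown and overlapped scramble in the *Obox4* knockdown. In *Obox4* knockdown and double knockdown 2C-embryos the 38 *Obox4* copies other than *Obox4-ps35*, which alone had 56.2 and 58.4 CPM in scramble, summed to 3.94 and 3.03 CPM and to 2.07 and 2.59 CPM, against 12.2 and 17.6 CPM in scramble. This split of the copies was chosen after the data were seen, and the copies are near-identical, so their counts are uncertain. *Duxf3* had 8.16 and 5.78 CPM in rescue, 3.66 and 1.93 CPM in *Dux* knockdown and 3.86 and 2.92 CPM in double knockdown 2C-embryos, against 6.49 and 7.68 CPM in scramble. It was higher in rescue than in double knockdown embryos (log2 1.03 ± 0.26, edgeR adjusted p = 0.006837). In PlaB-treated cells *Obox4* copies summed to at most 0.192 CPM in double KO cells, 0.130 CPM in *Dux* KO cells and 3.65 to 11.9 CPM in *Obox4* KO cells, against 15.6 to 17.0 CPM in WT cells. The sum over all copies thus did not follow the label in *Obox4* knockdown 2C-embryos, and in PlaB it was lower in *Dux* KO than in *Obox4* KO cells. It also did not follow the labels in 2 further groups, of morulae and of blastomeres. Morulae labelled double knockdown had more *Obox4* counts (3.74 and 7.93 CPM) than scramble morulae (0.321 and 0.351 CPM). Blastomeres labelled *Obox4* KO had 19.4 and 27.9 CPM, against 20.7 and 31.0 CPM in *Obox4* WT blastomeres. The knockout removed the gene cluster and left other copies in place, so the blastomere sum does not test the genotype label. These morulae and blastomeres are named below as labelled. Replicate 3 of the *Obox4* KO PlaB cells and replicate 2 of the labelled double knockdown morulae stood apart from their partners, and the values that rest on them are given with and without them where they change.

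Chromatin at these genes carried OBOX4 mainly in introns and upstream of the annotated start (the plot of OBOX4 peaks by distance). A gene was counted as having OBOX4 at its start when a peak lay within 3000 bases of its most 5′ exon base in at least 2 of the 3 lists. This was so for 5 of the 10 genes, *Tead1*, *Tead4*, *Wwtr1*, *Nf2* and *Amotl2*, and for 17.2% of all 55364 gene starts. Those starts include many without H3K4me3, a mark of active promoters, which lay at 35.7% to 40.7% of them per list. Of the 10 genes only *Lats2* lacked it. The share with OBOX4 among starts with H3K4me3 was not computed, so the 10 genes cannot be called richer in OBOX4 than other active starts. With the window cut to 1000 bases 3 of 10 remained (*Wwtr1*, *Nf2* and *Amotl2*, 13.2% of all starts), and with peaks of −log10 q of at least 10 alone, 2 of 10 (*Nf2* and *Amotl2*, 8.55% of all starts). No start of the 10 genes had a DUX peak, against 0.883% of all starts in the single DUX list.

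The enrichment of the strongest OBOX4 peak at the start, the ratio of signal to background given by the peak caller, was 63.5, 59.1 and 51.2 in the 3 lists at *Amotl2*. It was 5.66, 4.96 and 5.56 at *Wwtr1*, 5.43, 5.54 and 3.79 at *Nf2*, 3.60, 4.63 and 3.97 at *Tead1*, and 3.20, 3.46 and 3.32 at *Tead4*. *Amotl2* thus stood about an order of magnitude above the other bound starts. The 3 *Tead4* peaks lay at different positions in the lists, with summits at −1259, 204 and −1495 bases from the start, and did not share 1 site. *Tead2* had a peak in 1 list (3.18), and *Tead3*, *Yap1*, *Lats1* and *Lats2* had none.

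Sites found at the same place in all 3 lists numbered 15282 in the genome, of which 12 lay in or near these genes. The strongest was in an intron of *Tead1*, 12106 bases downstream of the start, with enrichments of 116.4, 114.1 and 108.6 and rank 71 of 15282. The upstream *Amotl2* site, with its summit at −1224 bases from the start, ranked 283. *Tead1* held a further intronic site 9431 bases downstream (22.1, 16.5 and 15.8, rank 1644), *Amotl2* one at 9593 bases (15.2, 13.4 and 10.9, rank 2585), and *Yap1* one at 8351 bases (10.2, 11.4 and 7.97, rank 3911). The other 7 sites, in *Tead1*, *Tead4*, *Wwtr1*, *Lats2* and *Nf2*, had enrichments of 3.41 to 6.89 and ranks from 9406 to 13851.

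**Figure D1:**
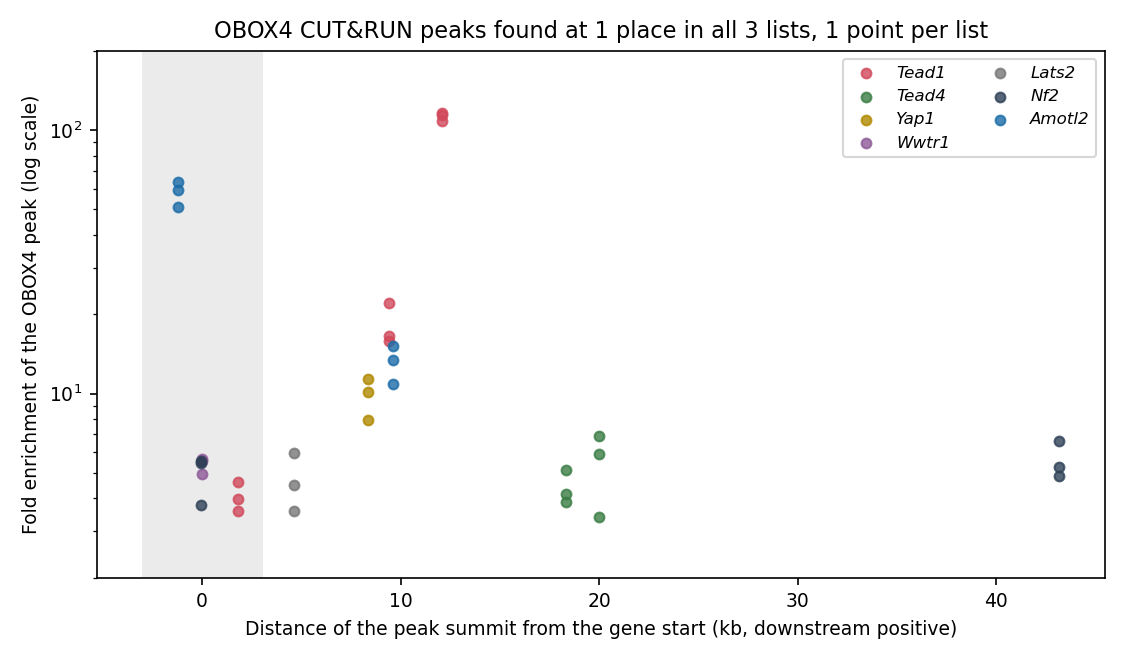
Fold enrichment of each OBOX4 CUT&RUN peak found at 1 place in all 3 lists (y axis, log scale) against the distance of its summit from the gene start (x axis, kb), 1 point per list and 1 colour per gene. The grey band spans 3 kb to either side of the start, the *Nf2* and *Wwtr1* points near 0 overlap, and the *Tead1* site at 12106 bases (108.6 to 116.4) and the *Amotl2* site upstream of the start (51.2 to 63.5) stand above the other 10 sites.

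The 300 bases around the summit of the strongest sites are printed because they are the DNA to which OBOX4 was mapped most strongly in this gene group, followed by the *Amotl2* and *Wwtr1* promoters, the only matched promoters of the group that hold the OBOX4 core. The motifs were searched on both strands and are in capitals where found: the OBOX4 core (GGGAT followed by C or T, then A or T, then A or G), the shorter homeodomain word GGATTA, which lies inside some forms of that core, and GGAATG, the word bound by TEAD factors (CATTCC on the other strand). All positions are in GRCm38.p6, the 2 sites are read from the genome and the 2 promoters, mostly upstream of a start and reaching just past it, from the RefSeq table.
*Tead1* intron, chr7:112691274-112691573, plus strand: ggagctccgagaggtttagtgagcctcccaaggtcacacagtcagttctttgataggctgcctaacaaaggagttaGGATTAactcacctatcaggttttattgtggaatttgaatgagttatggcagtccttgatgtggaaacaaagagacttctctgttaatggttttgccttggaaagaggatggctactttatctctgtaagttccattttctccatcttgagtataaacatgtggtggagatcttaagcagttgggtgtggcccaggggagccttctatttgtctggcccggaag
*Amotl2* upstream, chr9:102715298-102715597, plus strand: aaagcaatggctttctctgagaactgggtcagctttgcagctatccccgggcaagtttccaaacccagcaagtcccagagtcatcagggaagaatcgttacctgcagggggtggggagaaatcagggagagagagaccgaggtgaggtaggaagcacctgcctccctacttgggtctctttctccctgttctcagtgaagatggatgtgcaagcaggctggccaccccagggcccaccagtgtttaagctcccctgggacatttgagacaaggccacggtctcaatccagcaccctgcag
*Amotl2* promoter, chr9:102717554-102717853, plus strand: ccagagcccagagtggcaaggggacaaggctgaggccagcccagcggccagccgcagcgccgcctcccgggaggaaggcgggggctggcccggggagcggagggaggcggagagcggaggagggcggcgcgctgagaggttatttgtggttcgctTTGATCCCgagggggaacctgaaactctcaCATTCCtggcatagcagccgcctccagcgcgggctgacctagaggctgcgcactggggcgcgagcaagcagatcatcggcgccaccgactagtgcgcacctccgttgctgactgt
*Wwtr1* promoter, chr3:57575861-57576160, minus strand: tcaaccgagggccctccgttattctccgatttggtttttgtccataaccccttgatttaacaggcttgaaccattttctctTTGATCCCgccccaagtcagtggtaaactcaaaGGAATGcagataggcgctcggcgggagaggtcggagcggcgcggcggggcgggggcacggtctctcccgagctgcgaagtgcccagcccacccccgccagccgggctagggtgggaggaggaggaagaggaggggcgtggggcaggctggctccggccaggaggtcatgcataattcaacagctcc

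The *Tead1* site held GGATTA at positions 77 to 82, and the upstream *Amotl2* site held none of the words. GGATTA was present in 22.2% of all shared OBOX4 sites and in 7.06% of the 32851 promoters of the RefSeq table. The *Amotl2* promoter, which lies downstream of the OBOX4 summit, held TTGATCCC (the core read on the other strand) at positions 156 to 163 and CATTCC at 186 to 191. The *Wwtr1* promoter held TTGATCCC at positions 82 to 89 and GGAATG at 115 to 120. The core was present in 18.3% of shared OBOX4 sites and 7.02% of promoters, and GGAATG in 20.3% of sites and 14.7% of promoters. RefSeq promoters were matched for 8 of the 10 genes, and those of *Tead1* and *Tead4* are named only.

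Levels of the 10 genes differed widely among stages (the plot of levels by experiment). Levels of different genes are compared as CPM per kb of exon. The tables of different experiments were scaled separately, so that differences among stages are described and not tested, and in bulk samples fewer cells of a type cannot be told apart from less RNA per cell.

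**Figure D2:**
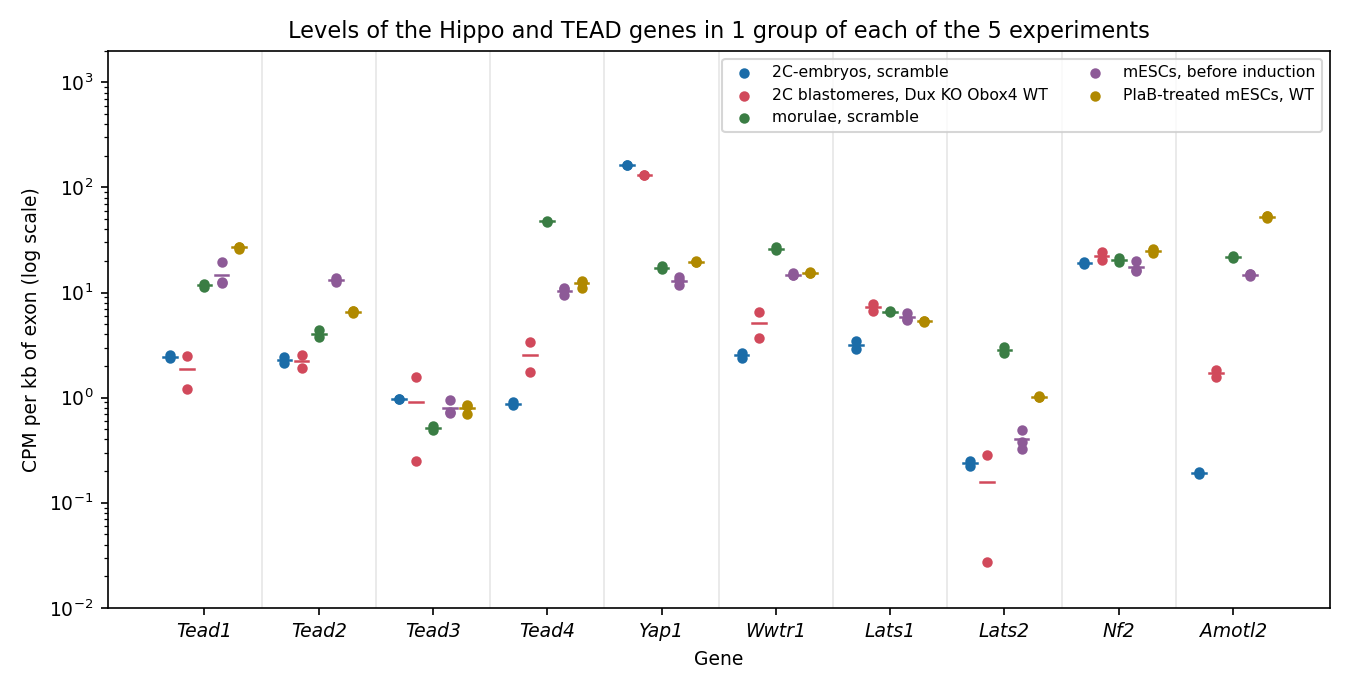
CPM per kb of exon (y axis, log scale) of the 10 genes in scramble 2C-embryos, *Obox4* WT blastomeres (all *Dux* KO), scramble morulae, mESCs before induction and WT mESCs in PlaB, 1 point per library and a bar at the group mean. *Yap1* is the highest gene in 2C-embryos and blastomeres (164.145 and 132 on average), *Tead4* in scramble morulae (47.7) and *Amotl2* in PlaB-treated WT cells (52.6).

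In scramble 2C-embryos *Yap1* was the highest at 164.145 CPM per kb on average, followed by *Nf2* (19.05), *Lats1* (3.18), *Wwtr1* (2.53), *Tead1* (2.45), *Tead2* (2.29), *Tead3* (0.973), *Tead4* (0.879), *Lats2* (0.237) and *Amotl2* (0.192). In this order *Wwtr1* and *Tead1*, and *Tead1* and *Tead2*, overlapped between libraries, and the other 7 neighbouring pairs did not. In scramble morulae the order was *Tead4* (47.7), *Wwtr1* (26.2), *Amotl2* (21.9), *Nf2* (20.5), *Yap1* (17.2), *Tead1* (11.7), *Lats1* (6.57), *Tead2* (4.07), *Lats2* (2.85) and *Tead3* (0.517), and 1 of 9 neighbouring pairs overlapped, *Amotl2* and *Nf2*. The embryo stages thus had opposite ends for *Amotl2* and *Tead4*, low in 2C-embryos and among the highest in morulae, while *Nf2* was close to 20 CPM per kb in both. In mESCs before induction *Nf2* (17.3), *Wwtr1* (14.8), *Tead1* (14.8), *Amotl2* (14.7), *Tead2* (13.2), *Yap1* (13.0) and *Tead4* (10.5) lay near each other, and *Tead3* (0.797) and *Lats2* (0.402) were lowest. In WT mESCs in PlaB *Amotl2* led at 52.6 CPM per kb, followed by *Tead1* (26.9) and *Nf2* (24.9), with *Lats2* (1.02) and *Tead3* (0.791) lowest and none of the 9 neighbouring pairs overlapping.

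In 2C-embryos, *Tead4* rose when *Dux* was knocked down and rose when both factors were, *Amotl2* rose in the double knockdown, and *Tead4* was lower in rescue than in double knockdown embryos (the plot of 2C-embryo levels). A gene was called when edgeR's quasi-likelihood test gave a p, adjusted by Benjamini-Hochberg over all genes, of 0.01 or less and the log2 fold change was 1 or more in either direction. The double knockdown called 2 of the 10 genes, both higher (background 11.6% of 23085 genes, 8.42% higher), the *Dux* knockdown 1, higher (4.3%, 3.25% higher), the rescue over double knockdown 1, lower (4.37%, 3.27% lower), and the *Obox4* knockdown and the rescue over scramble 0 (0.412% and 2.67%). At an unadjusted p under 0.05, the *Obox4* knockdown had 2 of the 10 genes and the rescue over scramble 5, and DESeq2 called 0 in both. Over all 23085 genes 4437 and 5639 had such a p.

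*Tead4* (ENSMUSG00000030353, chr6:128224288-128300823, minus strand), the TEAD factor of the trophectoderm, had 5.94 and 5.91 CPM in rescue, 15.4 and 17.5 CPM in double knockdown, 12.4 and 10.6 CPM in *Dux* knockdown and 3.80 and 5.50 CPM in *Obox4* knockdown embryos, against 3.24 and 3.08 CPM in scramble embryos. The 5 groups ran in the order double knockdown, *Dux* knockdown, rescue, *Obox4* knockdown, scramble, with no overlap between neighbours. The double knockdown over scramble was 5.19-fold (log2 2.37 ± 0.19, SE, edgeR adjusted p = 3.889e-08, n = 2 libraries each), and the *Dux* knockdown 3.64-fold (1.87 ± 0.19, 4.25e-06). The rescue was 0.360-fold of the double knockdown (log2 −1.47 ± 0.17, edgeR adjusted p = 6.361e-06) and 1.87-fold of scramble, which passed the p threshold but not the fold (0.90 ± 0.19, 0.00428). *Duxf3* was also higher in rescue than in double knockdown embryos, as given above, and its part in the *Tead4* difference was not tested. The *Obox4* knockdown alone was not called (log2 0.56 ± 0.20, edgeR adjusted p = 0.115), nor was the double knockdown over the *Dux* knockdown (0.51 ± 0.16, 0.0544, background 0.754%). The interaction, the difference between those last 2 effects, was −0.05 ± 0.26 on the log2 scale (edgeR adjusted p = 0.961, background 0.256%). The *Tead4* calls held without any 1 library.

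*Amotl2* (ENSMUSG00000032531, chr9:102716672-102733418, plus strand) had 2.18 and 2.08 CPM in rescue, 2.3998 and 3.6389 CPM in double knockdown, 2.29 and 1.41 CPM in *Dux* knockdown and 0.864 and 0.734 CPM in *Obox4* knockdown embryos, against 1.22 and 1.19 CPM in scramble embryos. In every group these are low levels, from 25 and 22 counts in *Obox4* knockdown against 40 and 29 counts in scramble. It rose 2.47-fold in the double knockdown (log2 1.30 ± 0.31, edgeR adjusted p = 0.0031), and the *Dux* knockdown (0.63, 0.19), the *Obox4* knockdown (−0.60, 0.394) and the rescue over double knockdown (−0.49, 0.218) were not called. The call was lost without double knockdown replicate 2 (log2 0.985, edgeR adjusted p = 0.0545) or without either scramble replicate (0.0263 and 0.0258).

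*Yap1* (ENSMUSG00000053110, chr9:7931999-8004596, minus strand) had 1475.5 and 1455.3 CPM in rescue, 1208.0 and 1252.3 CPM in double knockdown and 1282.8 and 1336.1 CPM in *Dux* knockdown embryos, against 1524.7 and 1514.3 CPM in scramble embryos. The double knockdown was 0.81-fold of scramble (log2 −0.30 ± 0.05, edgeR adjusted p = 0.000212) and the rescue was above the double knockdown (0.25 ± 0.05, 0.00166), both past the p threshold and short of the fold threshold. *Lats1* had 36.8 and 33.0 CPM in double knockdown embryos, against 25.3 and 21.2 CPM in scramble embryos (log2 0.59 ± 0.12, edgeR adjusted p = 0.000901), again short of the fold. *Nf2*, *Wwtr1*, *Lats2*, *Tead1*, *Tead2* and *Tead3* had adjusted p above 0.01 in the double knockdown. The summed CPM of 7 markers of 2C-embryos was 223 to 225 in double knockdown, 387 to 403 in *Dux* knockdown and 725 to 797 in *Obox4* knockdown embryos, against 928 to 1007 in scramble embryos. Maternal markers (7 genes) summed to 1351 to 1510 CPM in double knockdown, against 2370 to 2456 CPM in scramble embryos. The part of either shift in these results was not tested.

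**Figure D3:**
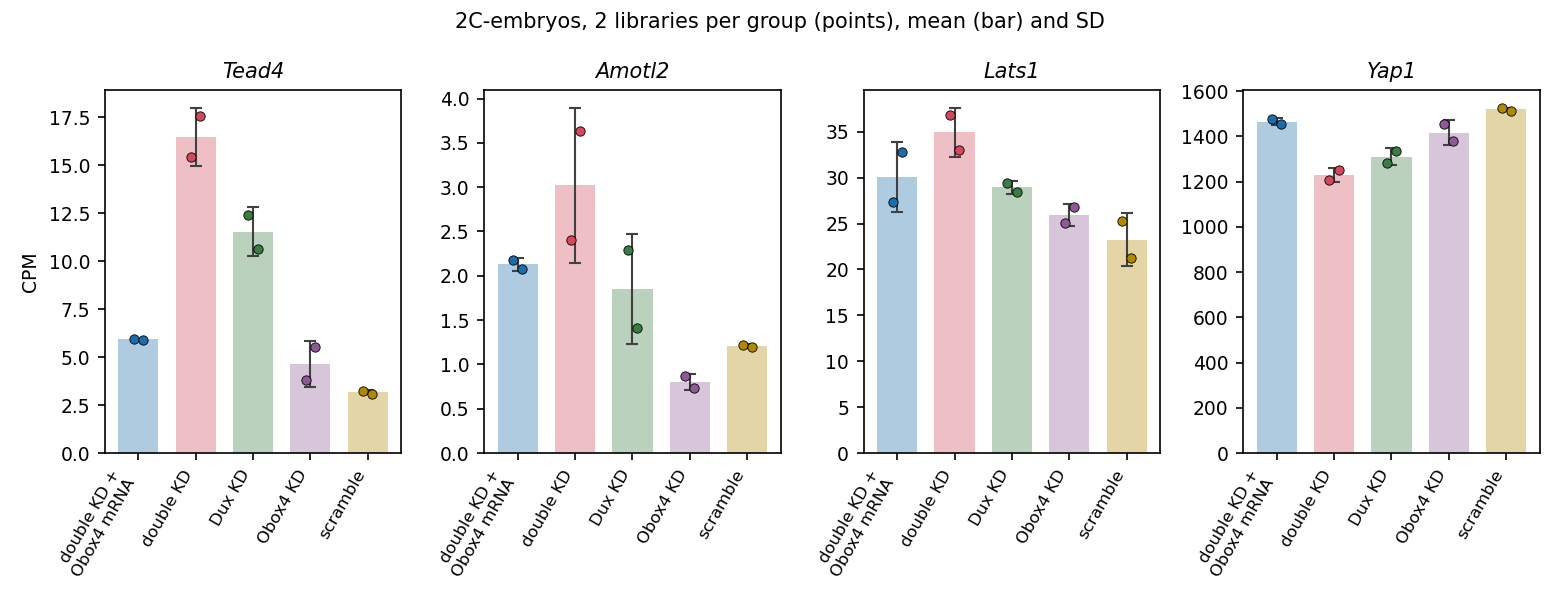
CPM of *Tead4*, *Amotl2*, *Lats1* and *Yap1* in 2C-embryos (y axes, each from 0), 2 libraries per group as points, the mean as a bar and the SD as an error bar. *Tead4* is highest in the double knockdown (15.4 and 17.5 CPM), lower in the *Dux* knockdown and lowest in scramble (3.24 and 3.08 CPM).

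Of 32 other Hippo pathway genes (upstream kinases, adaptors and polarity proteins, from a list written from general knowledge), 0 were called in any 2C-embryo comparison by edgeR or DESeq2. In the double knockdown 16 had an unadjusted p under 0.05, as did 10428 of all 23085 genes. The median log2 fold change of the 32 there was 0.02, against 0.03 over all genes, and that of the 10 genes 0.28. Of 22 known YAP/TEAD target genes, 20 were tested and 1 rose in the double knockdown, *Myc*, a transcription factor of growth, with 5.98 and 4.62 CPM in double knockdown against 1.80 and 1.68 CPM in scramble embryos (log2 1.61 ± 0.23, edgeR adjusted p = 2.974e-05). *Myc* also rose in rescue over scramble (3.80 and 4.83 CPM in rescue, log2 1.30 ± 0.23, 0.001213). *Gata3* had 4.13 and 5.84 CPM in double knockdown, against 6.64 and 7.44 CPM in scramble embryos (log2 −0.51, edgeR adjusted p = 0.0406), so that it did not move with *Tead4*.

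In PlaB-treated mESCs, 3 TEAD genes changed in the double KO: *Tead3* and *Tead4* rose and *Tead1* fell (the plot of PlaB cell levels). The double KO over WT called 3 of the 10 genes, 2 higher and 1 lower (background 18.0% of 22328 genes, 9.25% higher and 8.79% lower), the *Obox4* KO 1, higher (8.88%, 4.92% higher), and the *Dux* KO 0 (6.32%). In the *Dux* KO 4 of the 10 genes had an unadjusted p under 0.05, against 6412 of all 22328 genes, and DESeq2 called 0 of the 10. The double KO over *Dux* KO called 1, higher (7.07%, 5.07% higher). The double KO over *Obox4* KO called 0 (4.38%, DESeq2 0), and the interaction 0 (1.25%, DESeq2 0). In these last 2, 3 and 1 of the 10 genes had an unadjusted p under 0.05, against 8326 and 5782 of all 22328 genes. As given above, *Obox4* RNA was very low in both double KO and *Dux* KO cells, and the KO lines were picked clones. Double KO over *Dux* KO and the interaction thus cannot separate loss of *Obox4* from other differences between the lines. The median log2 fold change of the 10 genes was 0.44 in the double KO, 0.45 in the *Obox4* KO and 0.08 in the *Dux* KO, against −0.06, 0.02 and 0.00 over all genes.

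*Tead3* (ENSMUSG00000002249, chr17:28331671-28350817, minus strand), a TEAD factor best known from placenta, had 23.7, 28.0 and 30.1 CPM in double KO, 8.85, 7.78 and 8.09 CPM in *Dux* KO and 10.9, 11.7 and 35.3 CPM in *Obox4* KO cells, against 5.66, 5.55 and 4.73 CPM in WT cells. All KO libraries were above all WT libraries, and *Obox4* KO replicate 3 lay above every double KO library. The double KO was 5.12-fold of WT (log2 2.36 ± 0.37, edgeR adjusted p = 0.000308, n = 3 each), the *Obox4* KO 3.63-fold (1.86 ± 0.37, 0.00283) and the double KO 3.30-fold of the *Dux* KO (1.72 ± 0.36, 0.00484). The *Dux* KO alone was not called (0.63 ± 0.36, edgeR adjusted p = 0.278). Without *Obox4* KO replicate 3, the *Obox4* KO effect was 1.09 on the log2 scale (adjusted p = 6.66e-05), the count called there was 3 (*Tead3*, *Lats2* and *Amotl2*), and *Tead3* was also called in the double KO over *Obox4* KO (log2 1.27). The *Obox4* KO call of *Tead3* was lost without any 1 WT library and when only those 2 groups were fitted (edgeR adjusted p of 0.0138 to 0.0238), and the call over *Dux* KO was lost without any 1 of its 6 libraries (0.0101 to 0.0255).

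*Tead4* had 112.64, 121.67 and 96.361 CPM in double KO, 75.5, 76.2 and 80.5 CPM in *Dux* KO and 73.0, 73.2 and 80.9 CPM in *Obox4* KO cells, against 46.4, 40.2 and 45.6 CPM in WT cells. The single KO groups overlapped each other and lay apart from both others. The double KO was 2.50-fold of WT (log2 1.32 ± 0.11, edgeR adjusted p = 2.112e-06), while the *Obox4* KO at 1.72-fold (0.78 ± 0.11, 0.000297) and the *Dux* KO at 1.76-fold (0.81 ± 0.11, 0.000207) passed the p threshold and not the fold. The double KO exceeded each single KO by 0.51 and 0.54 on the log2 scale (edgeR adjusted p = 0.00518 over *Dux* KO and 0.00594 over *Obox4* KO). *Tead4* was thus higher in the double knockdown 2C-embryos and in the double KO PlaB cells, but not in labelled double knockdown morulae nor in *Dux* KO blastomeres labelled *Obox4* KO, whose values are given below. The blastomere comparison had *Dux* KO on both sides, unlike those over scramble and WT. In morulae and blastomeres edgeR called no gene at all, so a missing call there says little.

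*Tead1* (ENSMUSG00000055320, chr7:112679318-112906807, plus strand), which carries the strongest OBOX4 site printed above, had 187.82, 201.45 and 133.14 CPM in double KO, 308.07, 290.09 and 287.61 CPM in *Dux* KO and 324.93, 317.62 and 217.39 CPM in *Obox4* KO cells, against 370.48, 367.74 and 356.15 CPM in WT cells. The double KO was below every other library and 0.478-fold of WT (log2 −1.06 ± 0.17, edgeR adjusted p = 0.000293). Without double KO replicate 3 the effect was −0.92 (adjusted p = 0.000394), under the fold threshold, and the 3 called genes were then *Tead3*, *Tead4* and *Lats2*. *Tead2*, which is expressed early in the embryo, had 63.9, 51.7 and 54.8 CPM in double KO, against 30.5, 32.0 and 32.1 CPM in WT cells (log2 0.85 ± 0.16, edgeR adjusted p = 0.000992), short of the fold threshold.

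Among the kinases and scaffolds, *Lats2* had 17.4, 13.9 and 10.3 CPM in double KO, 10.8, 9.21 and 10.5 CPM in *Dux* KO and 17.1, 14.5 and 9.66 CPM in *Obox4* KO cells, against 7.04, 7.19 and 7.12 CPM in WT cells. Its log2 fold changes of 0.97 ± 0.22 in the double KO and 0.95 ± 0.22 in the *Obox4* KO passed the p threshold (edgeR adjusted p = 0.00395 and 0.00753) and were just short of the fold. *Amotl2* had 462, 422 and 511 CPM in double KO, 344, 340 and 339 CPM in *Dux* KO and 678, 673 and 339 CPM in *Obox4* KO cells, against 336, 321 and 336 CPM in WT cells. *Obox4* KO replicate 3 matched WT and the other pair was about 2-fold higher. With it the *Obox4* KO effect was 0.77 ± 0.20 (edgeR adjusted p = 0.0144), and without it 1.03. *Nf2* had 112, 122 and 134 CPM in *Obox4* KO, against 176, 163 and 172 CPM in WT cells (log2 −0.47 ± 0.10, edgeR adjusted p = 0.00423). *Yap1*, *Wwtr1* and *Lats1* had no adjusted p under 0.05 in any PlaB comparison.

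**Figure D4:**
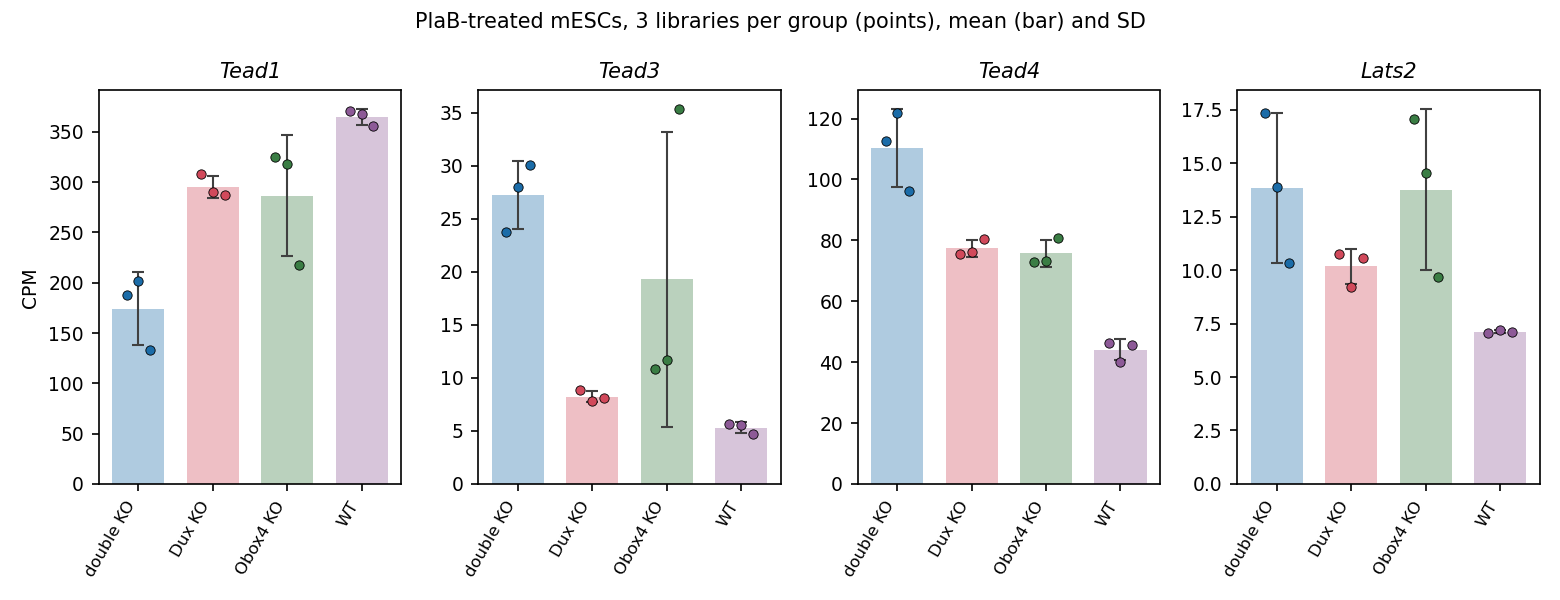
CPM of *Tead1*, *Tead3*, *Tead4* and *Lats2* in PlaB-treated double KO, *Dux* KO, *Obox4* KO and WT mESCs (y axes, each from 0), 3 libraries per group as points, the mean as a bar and the SD as an error bar. *Tead1* is lowest in double KO cells (133.14 to 201.45 CPM) and highest in WT, *Tead4* runs the other way, and 1 *Obox4* KO library at 35.3 CPM sets the spread of *Tead3*.

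Marker levels moved with these groups. Markers of morula and trophectoderm (6 of 6 detected, *Cdx2* and *Gata3* among them) summed to 3041 to 3789 CPM in double KO, 411 to 417 CPM in *Dux* KO and 551, 553 and 1911 CPM in *Obox4* KO cells, against 143 to 146 CPM in WT cells. Markers of mESCs (6 of 6 detected, *Sox2* among them) summed to 1350 to 1493 CPM in double KO and 1671 to 2086 CPM in *Obox4* KO cells, against 3079 to 3158 CPM in WT cells. Their sum in *Dux* KO cells was 2506 to 2524 CPM. Markers of 2C-embryos (7 genes) summed to 0.186 to 0.832 CPM in double KO and 0.658 to 0.824 CPM in *Dux* KO cells. These 2C markers had 403 to 842 CPM in *Obox4* KO cells, against 905 to 1007 CPM in WT cells. *Gata3* rose in the double KO, with 125, 133 and 96.7 CPM in double KO against 18.9, 19.1 and 18.2 CPM in WT cells (log2 2.66, edgeR adjusted p = 1.19e-06), and *Cdx2* rose with it, with 83.8, 119 and 167 CPM in double KO against 16.5, 14.8 and 17.3 CPM in WT cells (2.92, 0.00325). *Sox2* fell in the double KO to 130, 151 and 109 CPM, against 491, 468 and 482 CPM in WT cells (log2 −1.88). The part of these markers in the *Tead3*, *Tead4* and *Tead1* differences was not tested.

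Of the 32 other Hippo genes, 7 rose and 0 fell in the double KO (9.25% and 8.79% of all genes), and 6 rose and 0 fell in the *Obox4* KO (4.92% and 3.96% of all genes). None were called in the *Dux* KO by edgeR or DESeq2, where 9 had an unadjusted p under 0.05, against 6412 of all 22328 genes. In the double KO the smallest p belonged to *Wwc2* (a KIBRA family scaffold), *Limd1* (a LIM protein that restrains LATS), *Vgll4* (a TEAD cofactor that competes with YAP1) and *Rassf1* (an upstream activator). *Wwc2* had 601, 528 and 767 CPM in double KO, against 169, 172 and 180 CPM in WT cells (log2 1.86 ± 0.13, edgeR adjusted p = 6.51e-07). *Limd1* rose by 2.02 ± 0.18, *Vgll4* by 2.04 ± 0.22 and *Rassf1* by 1.496 ± 0.182 on the log2 scale. In the *Obox4* KO the 6 were led by *Rassf1* (1.65), *Wwc2* (1.12), *Limd1* (1.52) and *Pard6b* (1.66), the last a polarity protein. The double KO over *Dux* KO raised 5, led by *Limd1* (1.49), *Wwc2* (1.02), *Wwc1* (1.45) and *Pard6b* (1.66), and the double KO over *Obox4* KO raised *Ptpn14* (1.10) and *Wwc1* (1.46). The interaction called *Ptpn14*, a phosphatase that binds YAP1, and *Amotl1*, an angiomotin (log2 1.26 and 1.65). *Ptpn14* had 243, 221 and 209 CPM in double KO, 180, 175 and 177 CPM in *Dux* KO and 95.7, 89.7 and 129 CPM in *Obox4* KO cells, against 199, 198 and 198 CPM in WT cells, so that *Obox4* KO cells were the lowest.

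Of the 22 YAP/TEAD targets, 4 rose and 2 fell in the double KO (9.25% and 8.79% of all genes), 2 rose and 2 fell in the *Obox4* KO (4.92% and 3.96%), and 0 rose and 3 fell in the *Dux* KO (1.62% and 4.7%). *F3*, the tissue factor gene, had 41.4, 26.1 and 16.2 CPM in double KO, 7.68, 7.82 and 7.56 CPM in *Dux* KO and 22.1, 24.1 and 20.4 CPM in *Obox4* KO cells, against 3.43, 3.78 and 3.85 CPM in WT cells (log2 2.93 ± 0.27 in the double KO, edgeR adjusted p = 4.348e-06, and 2.59 ± 0.27 in the *Obox4* KO, 4.145e-05). *Igfbp3*, an IGF binding protein, fell to 8.64, 8.69 and 9.50 CPM in double KO and to 11.1, 11.0 and 9.95 CPM in *Dux* KO cells, against 37.0, 39.2 and 37.8 CPM in WT cells (log2 −2.09 and −1.83). *Axl*, a receptor kinase, rose in the double KO (1.56 ± 0.31, edgeR adjusted p = 0.001466), and *Rbms3*, an RNA binding protein, fell at low levels in all 3 KO genotypes (log2 −3.52, −5.61 and −2.44 in double KO, *Dux* KO and *Obox4* KO). *Fstl1*, a secreted glycoprotein, fell in the *Obox4* KO (−1.42) and *Ccn1*, a matrix protein, rose there (1.13), while *Crim1*, a transmembrane protein, fell in the *Dux* KO (−1.10). The double KO over *Dux* KO raised *F3* (1.87), *Axl* (1.35) and *Crim1* (1.01). The double KO over *Obox4* KO raised *Ptpn14* and *Axl* (1.91) and lowered *Igfbp3* (−1.70), and the interaction called *Ptpn14* and *Rbms3* (4.53).

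Induction of *Obox4* in mESCs, in the same line in which OBOX4 was mapped, called 0 of the 10 genes at 12 h and 0 at 48 h (edgeR, background 0.757% and 3.95% of 18625 genes). At each time 5 of the 10 genes had an unadjusted p under 0.05, against 2811 and 4564 of all 18625 genes, and DESeq2 called 0 of the 10. *Lats2* came nearest, with 2.65, 3.47 and 2.28 CPM at 0 h, 6.16, 4.17 and 3.22 CPM at 12 h and 4.49, 6.19 and 6.41 CPM at 48 h (log2 1.02 ± 0.26 at 48 h over 0 h, edgeR adjusted p = 0.0258). *Amotl2*, with the strongest OBOX4 peak at a start, had 93.5, 93.6 and 89.5 CPM at 0 h, 121, 115 and 113 CPM at 12 h and 114, 111 and 117 CPM at 48 h (0.30 ± 0.08 at 48 h, 0.0353). Its later libraries were all above the 0 h libraries, by a small amount. *Tead1*, with the strongest intronic site, had 168.94, 263.36 and 169.64 CPM at 0 h, 434.01, 141.27 and 137.8 CPM at 12 h and 145.05, 300.96 and 325.0 CPM at 48 h, a spread within groups that covered any difference (log2 0.36 ± 0.44, edgeR adjusted p = 0.716). *Tead4* had 34.1, 40.0 and 38.7 CPM at 0 h, 32.9, 23.4 and 25.7 CPM at 12 h and 23.9, 28.9 and 29.9 CPM at 48 h (−0.45 ± 0.14 at 48 h, 0.0698). *Nf2* had 109, 111 and 135 CPM at 0 h, 96.2, 82.7 and 90.6 CPM at 12 h and 90.8, 96.3 and 96.7 CPM at 48 h (−0.32, 0.0824). The other 5 genes, *Tead2*, *Tead3*, *Yap1*, *Wwtr1* and *Lats1*, had log2 changes of −0.35 to 0.31 at 48 h.

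Of the YAP/TEAD targets (18 tested), 1 rose at 12 h and 4 at 48 h (3.37% of all genes rose at 48 h). Of 31 other Hippo genes tested 0 were called at either time (DESeq2 0). At an unadjusted p under 0.05 there were 5 and 6 of the 31, against 2811 and 4564 of all 18625 genes. *Nt5e*, a cell surface nucleotidase, had 12.5, 9.77 and 11.9 CPM at 0 h, 26.5, 30.9 and 30.7 CPM at 12 h and 36.2, 30.1 and 27.7 CPM at 48 h (log2 1.46 ± 0.14 at 48 h, edgeR adjusted p = 0.0001041). *Igfbp3* (1.71 ± 0.19), *Crim1* (1.17 ± 0.12) and *Ccn2*, a matrix protein (1.25 ± 0.23), were the other 3 at 48 h. Induction was also accompanied by a summed 2C marker level of 12.5 to 16.8 CPM at 0 h, 25.6 to 28.0 CPM at 12 h and 68.9 to 82.8 CPM at 48 h. *Duxf3*, at low levels, had 0.652, 0.280 and 0.326 CPM at 0 h and 1.51, 1.53 and 0.792 CPM at 48 h. That rise was short of the p threshold (log2 1.62 ± 0.47, edgeR adjusted p = 0.0466). The part of *Duxf3* in the changes at 48 h was not tested.

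Morulae labelled double knockdown had no called member (edgeR, background 0.0% of 22142 genes, DESeq2 0). At an unadjusted p under 0.05 there was 1 of 10, against 3941 of all 22142 genes. *Tead4* had 186 and 129 CPM in labelled double knockdown, against 174 and 169 CPM in scramble morulae, and *Yap1* had 167 and 154 CPM against 164 and 154 CPM. *Lats1* had 56.0 and 58.2 CPM in labelled double knockdown, against 47.3 and 48.6 CPM in scramble, and *Lats2* had 24.1 and 23.6 CPM against 18.7 and 21.1 CPM, neither of them called. *Tead2*, *Tead3*, *Nf2* and *Amotl2* overlapped between the groups. *Tead1* had the smallest p, with 117 and 106 CPM in labelled double knockdown against 153 and 165 CPM in scramble morulae (log2 −0.51 ± 0.17, edgeR adjusted p = 0.243). *Gata3* had 79.5 and 36.1 CPM in labelled double knockdown, against 109 and 148 CPM in scramble (log2 −1.15, edgeR adjusted p = 0.25), and *Cdx2* had 62.2 and 13.9 CPM against 76.7 and 96.8 CPM. *Sox2* had 2.96 and 3.73 CPM in labelled double knockdown, against 3.73 and 4.36 CPM in scramble. Replicate 2 of the labelled double knockdown, which was the lower in *Tead4*, *Wwtr1* (119 and 71.3 CPM), *Gata3* and *Cdx2*, had 269 CPM of summed 2C markers against 4.36 CPM in its partner and 4.43 and 7.32 CPM in scramble. Leaving out either replicate left 0 members called.

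Single blastomeres varied more within groups than the pooled embryos. *Tead4* had 0.163 and 0 CPM in blastomeres labelled *Obox4* KO (4 and 0 counts) and 0.584 and 15.3 CPM in *Obox4* Het (24 and 474 counts), against 12.1 and 6.35 CPM in *Obox4* WT blastomeres. The KO libraries were below both WT libraries, with a fitted log2 change of −6.83 ± 2.42 (edgeR adjusted p = 0.553) that depends on the prior count and is no bound on the fold. No member was called for KO or Het (edgeR, background 0.0% of 19182 genes in both), whereas DESeq2 called *Tead4* lower in the KO. At an unadjusted p under 0.05 there were 2 and 0 members, against 1388 and 532 of all 19182 genes. *Lats1* had 17.8 and 23.2 CPM in labelled *Obox4* KO, against 56.9 and 48.9 CPM in *Obox4* WT blastomeres (log2 −1.37 ± 0.52, edgeR adjusted p = 0.602). *Yap1* had the most counts of the 10 genes in every blastomere library, from 1196 to 1907 CPM. The other 7 genes had edgeR adjusted p above 0.8 in the KO. *Nf2* had 186 and 152 CPM in labelled *Obox4* KO and 110 and 135 CPM in *Obox4* Het, against 140 and 167 CPM in *Obox4* WT blastomeres. *Tead1* had 18.7 and 18.0 CPM in labelled *Obox4* KO and 28.7 and 33.6 CPM in *Obox4* Het, against 16.4 and 34.0 CPM in *Obox4* WT. *Tead2* had 5.05 and 10.1 CPM in labelled *Obox4* KO, against 9.17 and 12.1 CPM in *Obox4* WT. The remaining 4 spread widely within groups. *Tead3* had 2.12 and 6.78 CPM in labelled *Obox4* KO against 10.6 and 1.69 CPM in *Obox4* WT, and *Wwtr1* had 10.9 and 25.8 CPM against 31.3 and 17.5 CPM. In the same order *Lats2* had 9.37 and 0 CPM against 0.190 and 1.99 CPM, and *Amotl2* had 26.1 and 9.64 CPM against 11.5 and 9.88 CPM.

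Histone marks were read at the start of each gene as the strongest peak within 3000 bases, given as enrichment and 0 without a peak (the plot of histone peaks). A two-sided exact permutation test of 3 lists against 3 cannot go below 0.10, so no p-value was computed. A start was counted as separated when the lists did not overlap and the means differed at least 2-fold. Only starts with a peak in at least 2 lists of either group were tested, and background shares are of the starts tested. The read depth of the lists is unknown. H3K4me3, a mark of active promoters, was present at 9 of 10 starts in every list and absent at *Lats2*, whose start in the count table lies 12176 to 12265 bases upstream of 3 of its 4 RefSeq starts. No start was separated in any of the 4 H3K4me3 comparisons, with backgrounds of 15.2% (*Obox4* KO over WT in PlaB), 15.9% (*Obox4* KO over WT untreated), 8.45% (PlaB over untreated in *Obox4* KO) and 17.1% (PlaB over untreated in WT). *Tead4* had 90.4, 103 and 121 in *Obox4* KO with PlaB, against 48.5, 61.1 and 54 in WT with PlaB, and *Tead1* had 88.6, 82 and 99.7 against 50.3, 41.3 and 56.4. These lists did not overlap, and the means were less than 2-fold apart. The median H3K4me3 enrichment over all gene starts with a peak was itself higher in *Obox4* KO with PlaB (43.6 to 48.2) than in WT with PlaB (30.8 to 32.0).

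**Figure D5:**
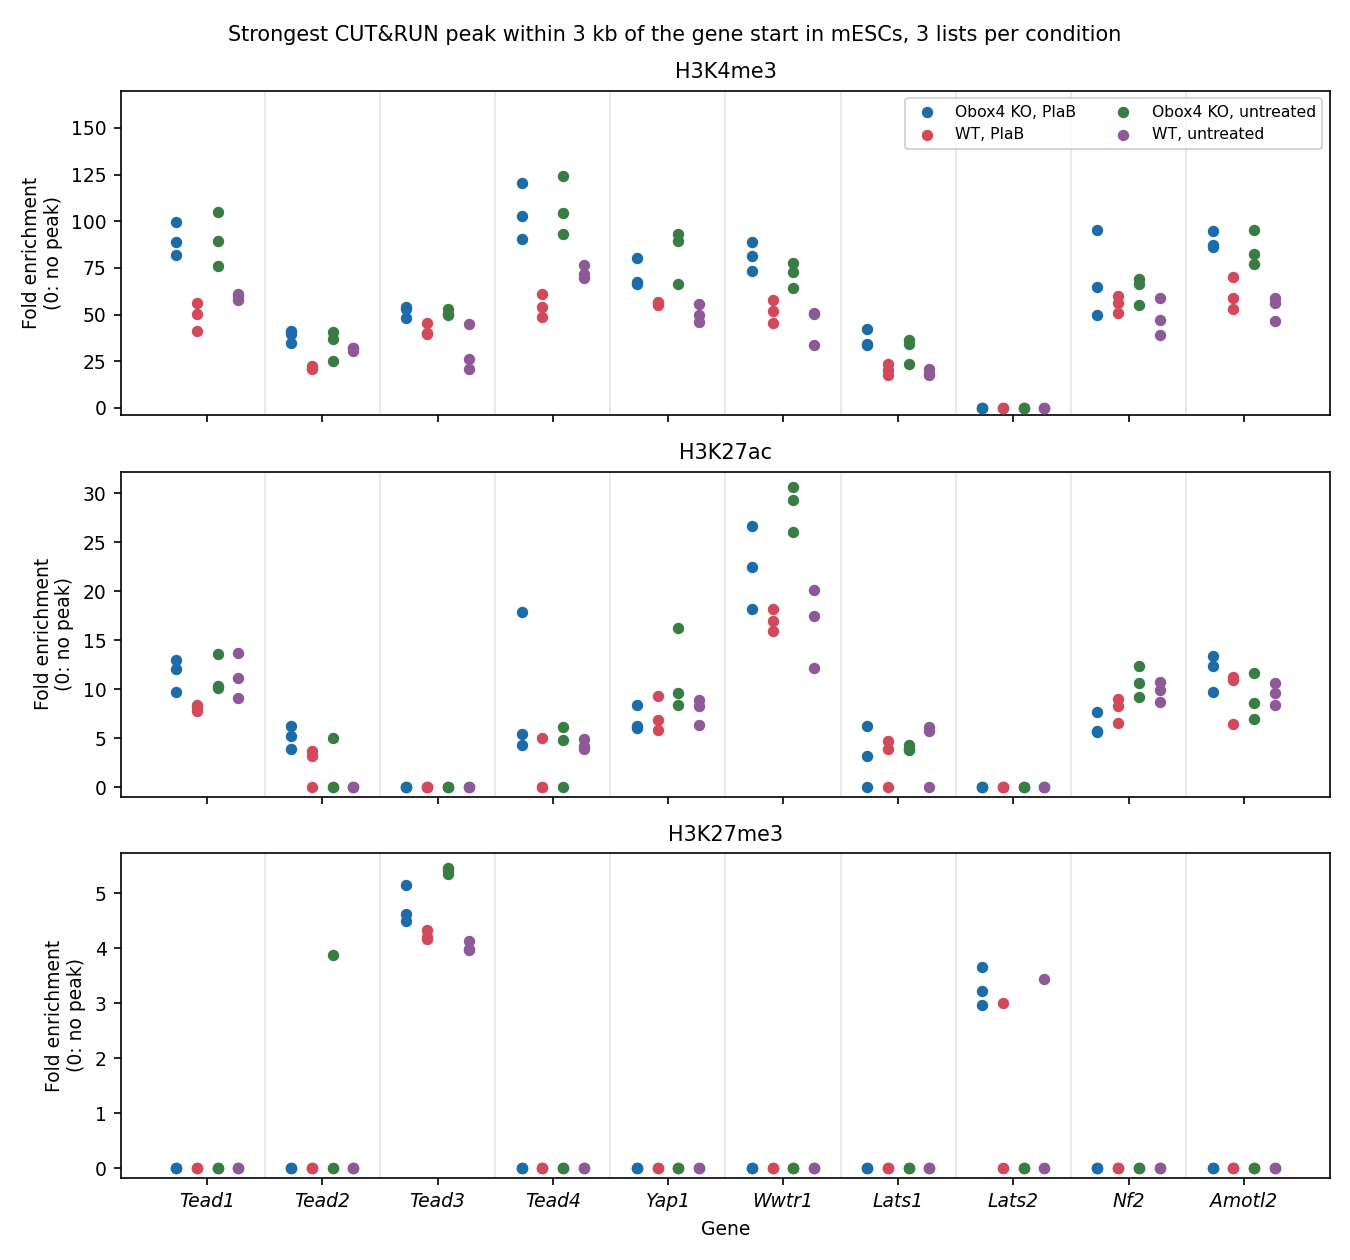
Enrichment of the strongest H3K4me3, H3K27ac and H3K27me3 peak within 3 kb of each start (y axes, linear, 0 where no peak was called) in *Obox4* KO with PlaB, WT with PlaB, untreated *Obox4* KO and untreated WT mESCs, 1 point per list. H3K27me3 is found in all 12 lists at *Tead3* alone, and *Tead2* has an H3K27ac peak in all 3 *Obox4* KO lists with PlaB (3.89 to 6.25).

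H3K27ac, a mark of active promoters and enhancers, was highest among the starts of the count table at *Wwtr1* (18.2, 22.5 and 26.7 in *Obox4* KO with PlaB, 16.9, 18.2 and 15.9 in WT with PlaB, 26, 30.6 and 29.3 in untreated *Obox4* KO and 12.1, 17.5 and 20.1 in untreated WT). This order depended on the start used. At the RefSeq starts, read after the data were seen, *Nf2* had 24.6, 27.5 and 25.8 in *Obox4* KO with PlaB, 13.5, 17.6 and 13.0 in WT with PlaB, 35.6, 45.5 and 30.7 in untreated *Obox4* KO and 12.8, 23.0 and 22.8 in untreated WT. Its mean was above that of *Wwtr1* in all but WT with PlaB. Only *Tead2* was separated, with 3.89, 6.25 and 5.26 in *Obox4* KO with PlaB, against 3.20, 3.73 and 0 in WT with PlaB (means 5.13 and 2.31). In this comparison *Tead3* and *Lats2* were not tested, and 10.8% of the 13756 starts tested were called higher. With peaks of −log10 q of at least 10 no member was separated. *Tead2* RNA in the same condition was 40.2, 40.8 and 61.4 CPM in *Obox4* KO, against 30.5, 32.0 and 32.1 CPM in WT cells (log2 0.59, edgeR adjusted p = 0.0155). *Tead3* had no H3K27ac peak in any list, and *Lats2* had none at its start in the count table, though it did at the RefSeq starts described below. In the other 3 H3K27ac comparisons no member tested was separated (14.1%, 15.1% and 8.41% of the starts tested). *Tead3* and *Lats2* were tested in none of these, and *Tead2* not in untreated *Obox4* KO over untreated WT.

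H3K27me3, the Polycomb mark of repressed genes, lay on *Tead3* in all 12 lists, at 4.50, 5.15 and 4.62 in *Obox4* KO with PlaB, 4.33, 4.17 and 4.20 in WT with PlaB, 5.41, 5.46 and 5.36 in untreated *Obox4* KO and 4.13, 3.96 and 3.99 in untreated WT. *Obox4* KO lists were above WT lists with and without PlaB, and in neither was the mean 2-fold apart. The log2 ratio of the means at *Tead3* was 0.17 with PlaB and 0.43 without. Its median across starts tested for this mark was itself 0.35 and 0.39. The peak was 5606 to 14527 bases wide in *Obox4* KO with PlaB, 5793 to 15400 bases in WT with PlaB, 21273 to 23289 bases in untreated *Obox4* KO and 5120 to 14235 bases in untreated WT. *Tead3* thus held H3K4me3 and H3K27me3 peaks in the same cell populations and no H3K27ac peak, and its H3K27me3 was not lower in *Obox4* KO with PlaB, where its RNA was higher. Within 1 population, both marks can lie on different cells.

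At the start of *Lats2* in the count table, H3K27me3 was 3.67, 3.22 and 2.97 in *Obox4* KO with PlaB and 0 in all 3 untreated *Obox4* KO lists. It was the only separated start for that mark. Only *Tead3* and *Lats2* had enough peaks to be tested there, and 4.46% of the 15250 starts tested were called higher (10.3% either way). Read at the RefSeq starts instead, a choice made after the data were seen, *Lats2* was marked in every list and no longer separated in that comparison. There it had H3K27me3 of 5.41, 5.20 and 5.37 in *Obox4* KO with PlaB, 3.73, 3.62 and 3.44 in WT with PlaB, 4.04, 4.15 and 3.98 in untreated *Obox4* KO and 3.80, 3.60 and 3.38 in untreated WT. H3K4me3 was 27.3, 26.9 and 35.7 in *Obox4* KO with PlaB and 29.7, 39.7 and 31.5 in WT with PlaB. H3K27ac was 0 in all 3 *Obox4* KO lists with PlaB, 3.53, 0 and 4.69 in WT with PlaB, 5.73, 6.57 and 4.11 in untreated *Obox4* KO and 3.56, 4.44 and 4.05 in untreated WT. *Obox4* KO lists with PlaB thus had the highest H3K27me3 at *Lats2*, while its RNA was also higher there than in WT cells. In the other H3K27me3 comparisons no member tested was separated (14.5%, 15.9% and 5.82% of the starts tested). *Tead3* was tested in each of these, and *Lats2* only in *Obox4* KO over WT with PlaB.

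The marks were also read at the shared OBOX4 sites, a choice made after the data were seen. At the *Tead1* intronic site printed above, H3K27ac was 27.01, 30.49 and 26.9 in *Obox4* KO with PlaB, 20.1, 23.3 and 23.5 in WT with PlaB, 39.8, 51.4 and 43.3 in untreated *Obox4* KO and 15.8, 17.8 and 20.4 in untreated WT. The untreated *Obox4* KO was 2.49 times untreated WT and separated, as were 16.9% of the 11823 shared sites tested, in that direction. After division by the median of each list the ratio was 2.00 and the site no longer passed (10.5% of the shared sites tested did). H3K4me3 lay there too (28.8, 34.5 and 41.1 in untreated *Obox4* KO, against 17.88, 23.60 and 19.04 in untreated WT), and H3K27me3 was 0 in all 12 lists. At the intronic *Amotl2* site H3K27ac was 15.7, 15.8 and 10.8 in *Obox4* KO with PlaB, against 7.31, 6.53 and 6.26 in WT with PlaB, 2.10-fold and separated. At the intronic *Yap1* site it was 9.90, 7.92 and 11.6 in *Obox4* KO with PlaB and 0 in all 3 WT lists with PlaB, although untreated WT had 7.74, 6.39 and 8.80. In this comparison 15.0% of the 10754 shared sites tested were separated with *Obox4* KO higher. The sites were mapped with induced 3×FLAG-OBOX4. OBOX4 was not mapped in the WT or *Obox4* KO cells in which the marks were read, and its part in the marks was not tested.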

How the data were processed

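RNA-seq and CUT&RUN samples were grouped by their labels. The 10 genes, the gene lists and the tests were chosen with earlier results of these data known. The deposited gene tables hold raw counts, which the authors obtained by trimming (fastp 0.23.2), alignment to GRCm38.p6 (STAR 2.7.9a) and featureCounts 2.0.1, leaving out reads that mapped to several places. The deposited blastomere table (featureCounts 2.0.6, GENCODE vM25) holds fractional, that is expected counts, which were rounded. For CUT&RUN, each replicate had its own peak calling by the authors (Bowtie2 2.4.1, then MACS3 3.0.0a6), and the deposited lists give the enrichment as a ratio of signal over background and the q-value as −log10 q.

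Counts were fitted with edgeR (4.0.16) in R (4.3.3) per experiment with all its groups, after filterByExpr and TMM scaling, and p-values were adjusted over all genes tested. CPM used TMM-scaled library sizes, and counts per kb used exon lengths of the table. The paper calls the induction and 2C-embryo replicates biological. It gives n = 3 for the 2C-embryos, where the deposited series holds 2 libraries per group. The sources do not say whether replicates were separate cultures or litters, so p-values measure the spread between these samples, which may be partly technical. The errors printed with fold changes are standard errors of the fit, which include the spread between libraries. Every gene of the list was named in each experiment, and from the other lists up to 4 called genes with the smallest p per comparison. *Gata3*, *Cdx2* and *Sox2* were given beside them. The fit and the peak code were tested on simulated data. Alternatives were DESeq2 (1.42.0), RLE scaling, no filter, a replicate block, only the groups compared, an adjusted p of at most 0.05 without a fold minimum, each library left out, other peak windows and thresholds, and, chosen after seeing the data, RefSeq starts and histone marks at shared OBOX4 sites. For 3 IgG samples the labels conflict, and these were not used. Lists written for other cell types gave low sums. In PlaB libraries fibroblast markers were at most 43.9 CPM and blood markers at most 0.490 CPM. Blood markers reached 2.64 CPM in double knockdown 2C-embryos, against 1.44 CPM in scramble. They reached 4.97 CPM in labelled double knockdown morulae, against 0.492 CPM in scramble. Cumulus and granulosa markers were 4.72 to 4.96 CPM in double knockdown and 8.08 to 8.34 CPM in scramble 2C-embryos. In blastomeres they were 10.6 to 21.1 CPM in labelled *Obox4* KO and 9.30 to 17.5 CPM in *Obox4* Het, against 4.63 to 7.72 CPM in *Obox4* WT.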

Additional observations from a re-analysis of the deposited data

Results flagged for a closer look

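H3K27me3 at the *Tead3* start moved in opposite directions with PlaB in the 2 genotypes. In *Obox4* KO mESCs the mean enrichment was 4.76 with PlaB and 5.41 without, and every PlaB list was below every untreated list. In WT mESCs it was 4.24 with PlaB and 4.03 without, and every PlaB list was above every untreated list (3 lists each). Both shifts were small, with log2 ratios of 0.07 in WT and −0.19 in *Obox4* KO, beside medians of 0.03 and −0.02 across starts tested. The share of all starts with such opposite shifts was not computed, and the difference between the 2 effects was not tested. No member passed the threshold for the interaction term in 2C-embryos or in PlaB-treated cells.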

How the results depend on the processing

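Of 345 alternative counts of called or separated members, 293 stayed within 1.5 times the reported count and 52 moved. Of 100 alternative fits of the 9 called single-gene results, 86 kept direction and call, 14 kept direction and lost the call, and 0 reversed. RLE scaling moved no median fold change by over 0.03.

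With an adjusted p of at most 0.05 and no fold minimum the members called numbered 2 at 48 h of induction, 5 in the double knockdown, 2 each in the *Dux* knockdown, the rescue over scramble and the rescue over double knockdown, 5 in the double KO, 6 in the *Obox4* KO, 1 in the *Dux* KO, 4 in double KO over *Dux* KO, 2 in double KO over *Obox4* KO and 1 for the PlaB interaction. At 48 h of induction no filter and only the groups compared each gave 1 (*Lats2*). DESeq2 gave 1 in blastomeres (*Tead4*), and fitting only the groups compared gave 0 in the *Obox4* KO. Peaks of −log10 q of at least 10 gave 2 for H3K27ac in *Obox4* KO with PlaB over untreated, 0 for H3K27ac in *Obox4* KO over WT in PlaB, 0 for H3K27me3 in *Obox4* KO with PlaB over untreated and 2 for OBOX4, and the 1000-base window gave 3 for OBOX4. RefSeq starts gave 2 for the first of these, 0 for H3K27me3 there, and 1 for H3K27ac in untreated *Obox4* KO over WT. The cause was not tested in any of these.

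Leaving out 1 library gave 1 to 2 members in the double knockdown, 0 to 3 in the *Obox4* KO, 3 in the double KO, 0 in double KO over *Dux* KO and 0 to 1 in double KO over *Obox4* KO. It gave 0 to 1 for H3K4me3 in *Obox4* KO over WT with and without PlaB, 0 to 1 for H3K27ac in PlaB over untreated in each genotype, 0 to 2 for H3K27ac and 0 to 1 for H3K27me3 in *Obox4* KO over WT in PlaB, and 5 for OBOX4. A group left with 1 library was assumed to vary like the others.

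Deviations of same-numbered libraries of different groups had correlations of −0.448 to 0.207 in the induction series and −0.038 to 0.067 elsewhere. Outside the induction series the numbers thus gave no sign of pairing. In the induction series some of these libraries deviated in opposite directions. Differently numbered libraries were not set beside them, so pairing there is not settled. With a replicate block the count of members stayed within 1.5 times in 19 of 19 comparisons, for example 2 in the double knockdown and 3 in the double KO.

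Counts over all genes moved by over 1.5 times as follows. With an adjusted p of at most 0.05 and no fold minimum, 610 genes were called at 12 h and 2266 at 48 h of induction (141 and 735 as reported), 1350 in the *Obox4* knockdown (95), 4535 in the *Dux* knockdown (993), 8537 in the double knockdown (2673), 2487 and 6520 in rescue over scramble and over double knockdown (616 and 1008), 2611 in double over *Dux* knockdown (174), 593 for the 2C interaction (59), 5 in *Obox4* KO blastomeres (0), 5762, 3700 and 9228 in *Obox4*, *Dux* and double KO (1983, 1412 and 4028), 5558 and 4833 in double KO over *Dux* KO and over *Obox4* KO (1578 and 977) and 1681 for the PlaB interaction (278). Without the filter these became 255 at 12 h, 207 in the *Obox4* knockdown, 311 in double over *Dux* knockdown, 236 for the 2C interaction, 1281 in morulae (0), 93 and 11 in KO and Het blastomeres (0 each), 1679 in double over *Obox4* KO and 737 for the PlaB interaction. DESeq2 gave 253 at 12 h, 128 for the 2C interaction, 717 in morulae, 467 and 105 in KO and Het blastomeres, 1832 in double over *Obox4* KO and 1151 for the PlaB interaction. Only the groups compared gave 68 at 12 h, 296 in rescue over scramble, 315 in double over *Dux* knockdown, 127 for the 2C interaction, 2501 in the *Dux* KO and 135 in double over *Obox4* KO, and was no other fit for morulae and the PlaB interaction, which use every group. The block gave 37 at 12 h, 373 at 48 h, 5 in KO blastomeres and 183 for the PlaB interaction. Leaving out 1 library gave 52 to 205 at 12 h, 397 to 553 at 48 h, 43 to 82, 483 to 715 and 1624 to 2353 in the *Obox4*, *Dux* and double knockdown, 321 to 728 and 466 to 1124 in rescue over scramble and over double knockdown, 34 to 138 in double over *Dux* knockdown, 8 to 63 for the 2C interaction, 54 to 5790 in morulae, 28 to 320 and 3 to 28 in KO and Het blastomeres, 1225 to 3184, 971 to 1023 and 3120 to 3937 in the *Obox4*, *Dux* and double KO, 774 to 1574 and 495 to 2986 in double KO over *Dux* KO and over *Obox4* KO, and 78 to 2223 for the PlaB interaction.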

Other observations

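Within the induction series, *Tead1*, *Yap1* and *Lats2* had libraries that crossed the time labels. *Tead1* had 434.01 CPM in replicate 1 at 12 h against 141.27 and 137.8 CPM in its partners, and 145.05 CPM in replicate 1 at 48 h against 300.96 and 325.0 CPM in its partners. *Yap1* had 161.66, 124.33 and 117.35 CPM at 12 h and 134.87, 153.36 and 157.28 CPM at 48 h, with 109.46, 121.19 and 129.17 CPM at 0 h. The summed 2C markers kept to the labels in these same libraries.

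In 2C-embryos *Wwtr1*, which encodes TAZ, had 9.40 and 6.90 CPM in *Obox4* knockdown against 12.7 and 11.5 CPM in scramble, and 12.2 and 12.7 CPM in double knockdown against 11.5 and 8.31 CPM in *Dux* knockdown. The interaction was 0.89 ± 0.24 on the log2 scale and failed the correction (edgeR adjusted p = 0.0625).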
